A study of Anser cygnoides with 12 samples.

Results

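The splicing factor genes described here are the 44 genes, of 18007 in the deposited table, whose symbol belongs to 1 of 5 families: 14 HNRNP, 11 PRPF, 7 SNRP, 6 SRSF, and 6 SF3A or SF3B genes. The rule reads the symbol alone, while the choice of these families was made with earlier results of the same data known. RNA from the jejunum of 12 female Sichuan white geese (Anser cygnoides), aged 250 days at the start, was sequenced after 12 weeks of feeding. The Con geese received a corn-soybean basal diet with 0% wheat germ, the LWG geese a diet with 21.8% wheat germ, and the HWG geese 43.6%, with 4 geese in each group. The geese are separate animals, and each library comes from jejunal tissue of 1 goose with all its cell types, so that fewer cells of a type and less RNA per cell cannot be told apart. By the paper's feed formulation, soybean meal, soybean oil, rapeseed meal and bran fell as wheat germ rose. Wheat germ and the loss of these ingredients therefore cannot be told apart. Each of the 3 pairs of diets was compared, to ask whether the diet went with a change in the RNA of the splicing machinery.

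Splicing removes introns from the primary transcript. The spliceosome is built on each intron from small nuclear ribonucleoprotein particles, the snRNPs. The U1 snRNP recognises the 5′ splice site and the U2 snRNP the branch point, and the U4/U6.U5 tri-snRNP then joins to form the catalytic core. SNRP genes encode proteins of these particles, among them the Sm proteins that form a ring on the snRNA. SF3A and SF3B genes encode the U2 parts that hold the branch point, and most PRPF genes encode proteins of the tri-snRNP or of complexes that act with it. SR proteins (SRSF) bind exonic enhancers and promote the use of nearby splice sites. The hnRNPs coat nascent transcripts and often repress splice sites. In the intestine, the crypts divide rapidly and supply the absorptive enterocytes of the villi, and both need a steady output of spliced mRNA.

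The deposited counts summed to between 40159187 and 45686956 per library, and the values below are CPM, counts adjusted for library size with TMM factors (trimmed mean of M-values). All 44 genes passed the filter on low counts, which left 14863 genes to be tested. Together they held between 0.80% and 1.13% of the counts of a goose. In the deposited annotation, 34 of the 44 are assigned to the KEGG spliceosome pathway. Of the listed enterocyte genes, the 7 present, among them FABP2 and SI, were expressed in every goose. Their levels differed widely, with FABP2 from 76.0 to 7540 CPM and the sum of the 7 from 2634 to 22107 CPM. These markers show enterocytes in each library but do not tell the jejunum from other small intestine. Counts from 14 genes combine several transcripts, and isoforms were not measured.

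Levels between genes were compared in FPKM, which takes transcript length into account, as the mean ± SD over all 12 geese. HNRNPA3, a pre-mRNA and mRNA binding protein, had the highest level at 327.5 ± 65.0 FPKM, followed by HNRNPH1, which binds G-rich elements, at 227 ± 25.6. Among SR proteins, SRSF6 stood at 213 ± 44.2 FPKM and SRSF3, the smallest SR protein, at 160.3 ± 40.1, whereas SRSF4 had the lowest level of all 44 genes at 6.34 ± 2.26. The lowest gene of the 44 and the fourth highest therefore belong to the same family. In the branch point group, SF3B1, the subunit that clamps the branch helix, was highest at 118 ± 13.3 FPKM, then SF3A1 at 74.0 ± 5.60, and SF3A2 was lowest at 30.4 ± 5.02. SNRPD1, an Sm protein, led the snRNP genes at 104 ± 22.2 FPKM, followed by SNRPB2 of the U2 snRNP at 89.4 ± 14.4, and SNRPA1, its partner in that particle, was lowest at 26.9 ± 10.7. PRPF19, the ubiquitin ligase of the Prp19 complex, had 58.3 ± 9.15 FPKM and PRPF8, the large scaffold of the catalytic core, 54.0 ± 7.90. PRPF18, a factor of the second catalytic step, had 9.81 ± 1.55 FPKM. When the 44 genes were ranked, 40 of the 43 neighbouring pairs differed by less than the larger SD of the pair. The 3 steps beyond it were HNRNPA3 above HNRNPH1, HNRNPA0 above PRPF18 and PRPF18 above SRSF4. In CPM, HNRNPA0 had a mean of 13.7 and PRPF18 of 66.6, so the step between them turned with the unit.

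**Figure D1:**
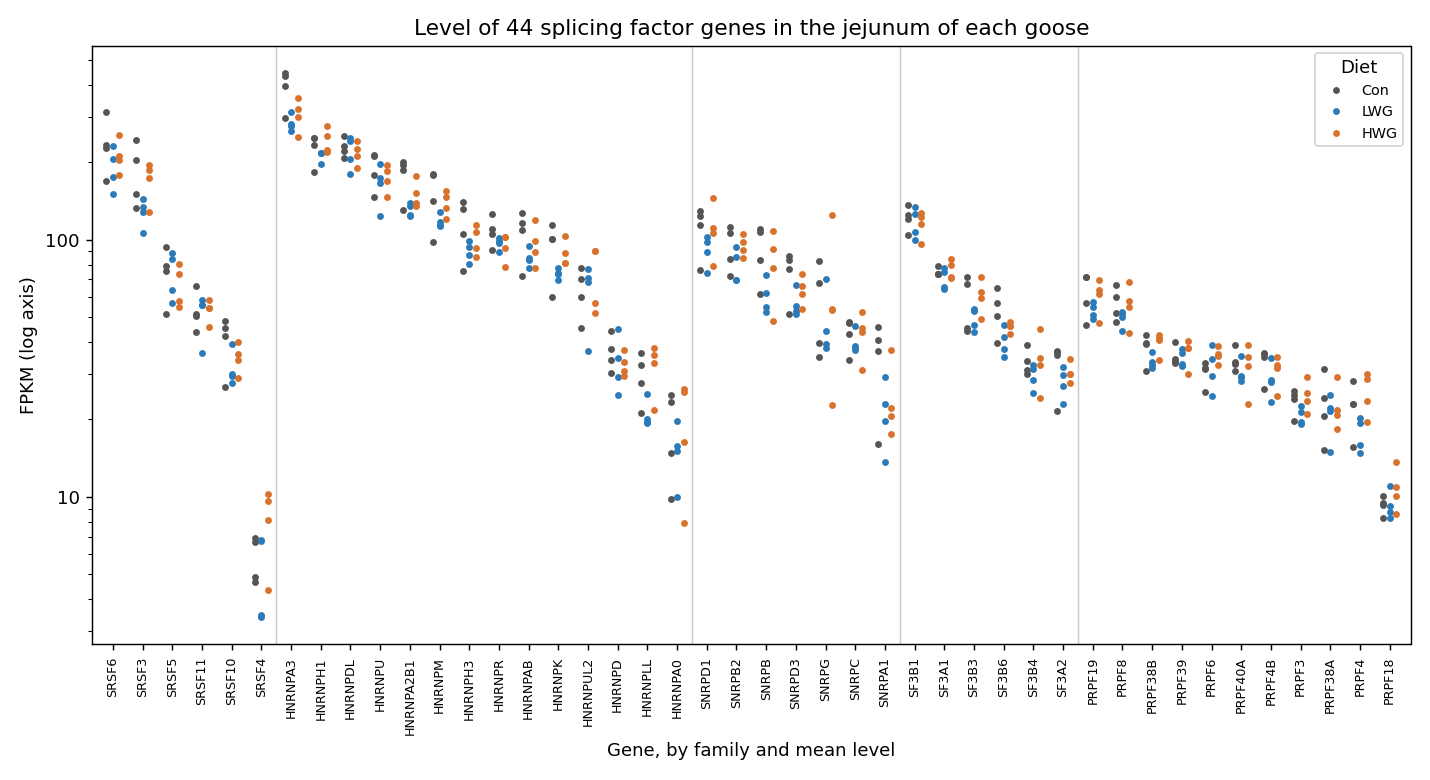
FPKM (log axis) of each of the 44 genes in each goose, with genes grouped by family and ordered by mean level, and a dot for each of the 12 geese coloured by diet. HNRNPA3 stood at the top with a mean of 327.5 FPKM and SRSF4 at the bottom with 6.34, and the dots of the 3 diets lay over each other for most genes.

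The levels of most of the 44 genes varied less among geese than was typical of the tested genes. The coefficient of variation of CPM over the 12 geese, diets pooled, had a median of 14.3% for the 44 genes, against 28.8% for all 14863 tested genes. Against the 9036 tested genes with a mean CPM in the same range, the median of which was 21.4%, 37 of the 44 were below. That range ran from 13.7 to 1182 CPM, and genes were not matched for level within it. The steadiest were HNRNPH1 at 7.13%, SF3A1 at 8.10%, and PRPF3 of the U4/U6 particle at 8.40%. The most variable were SNRPG, an Sm protein, at 47.5%, SNRPA1 at 37.2% and HNRNPA0 at 31.5%. SNRPG had 52.7, 21.4, 10.3 and 20.8 CPM in HWG geese, against 15.3, 33.0, 19.6 and 26.9 CPM in Con geese. The widest distance for SNRPG was therefore between geese of 1 diet, HWG goose 1 and HWG goose 3.

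Diets were compared with edgeR (quasi-likelihood test), with Benjamini-Hochberg adjustment over all 14863 genes. No splicing factor gene passed an adjusted p under 0.05 in any comparison, with edgeR or with DESeq2. With edgeR, the share of all tested genes that did so was 0% in each comparison. The absence of calls was thus general in that fit, and the share with DESeq2 is not given here. At an unadjusted p under 0.05, LWG against Con called 0 members higher, where 2.83% of all tested genes were, and 1 lower (HNRNPLL), where 3.8% were. HWG against Con called 0 higher, against a background of 2.13%, and 1 lower (HNRNPA3), against 2.04%. HWG against LWG called 2 higher (HNRNPLL and PRPF4), against 5.15%, and 0 lower, against 5.41%. With 44 genes, each of these counts lies near the share seen in all genes.

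The estimates were narrow for most of these genes. The 95% interval of the fold change stayed within 1.5-fold in either direction for 31 of the 44 genes (70.5%) in LWG against Con, for 32 (72.7%) in HWG against Con and for 34 (77.3%) in HWG against LWG. Among all tested genes the shares were 27.3%, 28.3% and 25.5% for the same comparisons. Those genes reach down to a mean of 0.097 CPM, while the lowest mean of the 44 was 13.7 CPM. The shares were not matched for level. For PRPF8 the log2 fold change was −0.076 with an interval of −0.42 to 0.27 in LWG against Con. For SF3A1 it was 0.011 with an interval of −0.30 to 0.32, and −0.085 on the FPKM scale. The intervals were widest for SNRPG, at −0.77 to 1.07 in HWG against Con, where a change of 1.5-fold was not detectable. The estimate for SNRPG turned below 0, to −0.41, without HWG goose 1.

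**Figure D2:**
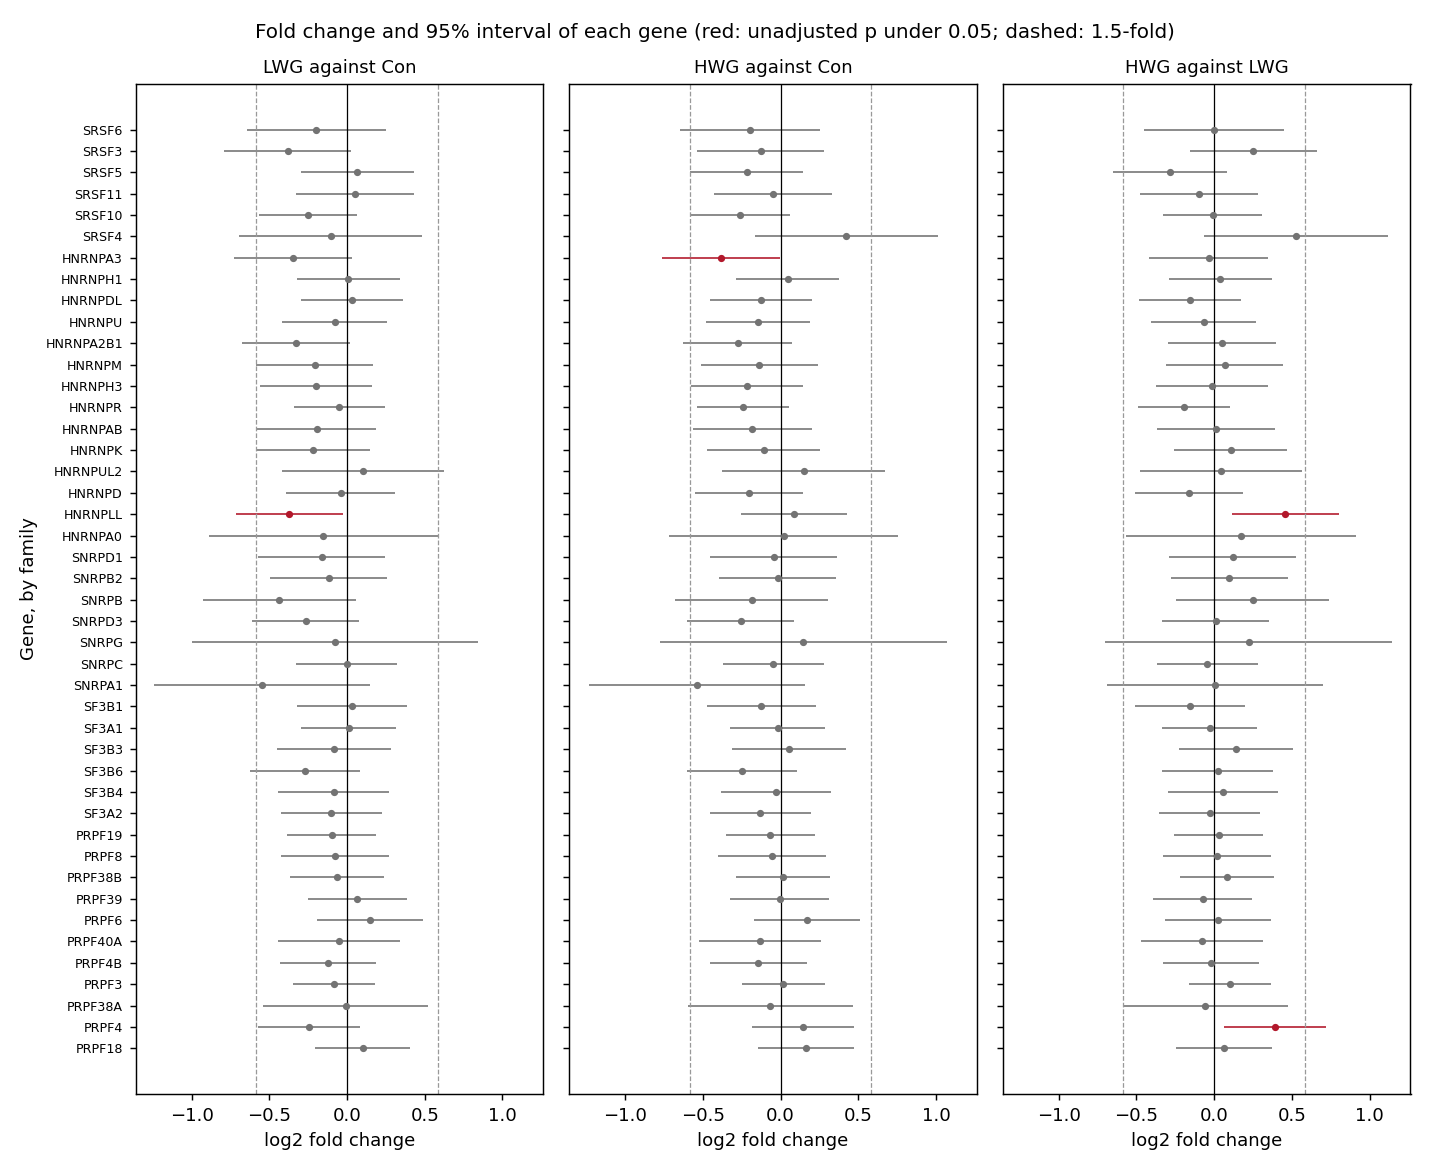
Log2 fold change (dots) and 95% interval (lines) of each of the 44 genes in the 3 comparisons of diets, ordered by family, with red for an unadjusted p under 0.05 and dashed lines at 1.5-fold. Red appears for HNRNPLL in LWG against Con and in HWG against LWG, for HNRNPA3 in HWG against Con and for PRPF4 in HWG against LWG, and 31, 32 and 34 intervals lie between the dashed lines.

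The small differences of the 44 genes leaned downward in both wheat germ groups. In LWG against Con, 34 of the 44 log2 fold changes (77.3%) were below 0, where 48.9% of all tested genes were. Their median was −0.091, with a range of −0.54 to 0.15, while the median of all tested genes was 0.0075. The median of the 44 genes was −0.160 without Con goose 3 and −0.149 without LWG goose 4. In HWG against Con, 32 (72.7%) were below 0, where 51.3% of all tested genes were. The median was −0.088, with a range of −0.54 to 0.42, against a median of −0.0099 for all tested genes. With upper-quartile factors the median was −0.042, and on the FPKM scale −0.033 (+ 0.1) and −0.032 (+ 1), where that of all genes was 0.037, 0.036 and 0.031. These comparisons share the Con geese. Each goose's median log2 deviation over the 44 genes had a pooled SD within diets of 0.086. That SD is a spread between single geese and not the error of a difference between diets. The medians of −0.091 and −0.088 therefore cannot be weighed directly against it. The counts of genes below 0 come from the same geese and carry no test. In HWG against LWG the median was 0.022, against 0.0055 for all, and without LWG goose 1 it was −0.0041. Of the 44 genes, 18 (40.9%) were below 0 there, where 49.4% of all tested genes were. By mean CPM, 14 genes had Con highest and LWG lowest, and 12 had Con highest and HWG lowest. Con lay between the others in 8 genes with HWG highest and in 6 with LWG highest. The remaining 4 (HNRNPH1, HNRNPUL2, PRPF6 and PRPF18) had means ordered Con, LWG, HWG from low to high. On the FPKM scale the median of all genes itself moved by −0.104 in LWG against Con and by 0.161 in HWG against LWG, and that of the 44 genes stood at −0.193 and 0.180 there.

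Among the SR proteins, no gene passed the unadjusted threshold in any comparison. SRSF3 had 195, 166, 227 and 250.3 CPM in LWG geese, against 232, 342, 231 and 285 CPM in Con geese. The groups overlapped, and the log2 fold change was −0.38 (SE 0.189, adjusted p = 0.762 by edgeR). In HWG geese SRSF3 had 289.8, 264, 205 and 240.1 CPM, with HWG goose 3 below the Con range and the others within it. SRSF4, the gene of lowest level in FPKM, had 26.6, 19.9, 12.1 and 23.1 CPM in HWG geese, against 17.0, 18.6, 10.5 and 10.5 CPM in LWG geese. HWG goose 3 lay within the LWG range, and the log2 fold change was 0.53 (SE 0.274, adjusted p = 0.517 by edgeR), the highest of the 44 in that comparison. SRSF10, which acts as a repressor when dephosphorylated, had log2 fold changes of −0.25 in LWG against Con and −0.26 in HWG against Con. SRSF5, SRSF6 and SRSF11 had log2 fold changes between −0.29 and 0.067 in the 3 comparisons.

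The hnRNP genes held 2 of the 3 genes that passed the unadjusted threshold. HNRNPLL, known in lymphocytes for the alternative splicing of CD45, had 61.6, 52.0, 58.0 and 59.5 CPM in LWG geese, against 72.6, 86.7, 62.5 and 77.0 CPM in Con geese. Every LWG goose was below every Con goose, and the log2 fold change was −0.37 (SE 0.159, adjusted p = 0.725 by edgeR). In HWG geese HNRNPLL had 96.0, 85.0, 59.1 and 77.2 CPM. The HWG geese therefore reached the Con range, with HWG goose 3 at the level of the LWG geese, and HWG against LWG gave a log2 fold change of 0.46 (SE 0.159, adjusted p = 0.385 by edgeR). The difference in HWG against LWG kept an unadjusted p under 0.05 in 21 of 21 alternative settings, and that in LWG against Con in 15 of 21. The 21 include runs without a goose of the third diet, which left the difference in LWG against Con almost unchanged. Of the runs without a Con or LWG goose, it kept that p only without Con goose 3 and without LWG goose 1.

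HNRNPA3 had 881, 1185, 1224 and 969.6 CPM in HWG geese, against 1443, 1476, 1219 and 1425 CPM in Con geese. HWG goose 3 was just above Con goose 3, and the other HWG geese were below all Con geese. The log2 fold change was −0.39 (SE 0.176, adjusted p = 0.939 by edgeR). In LWG geese HNRNPA3 had 1074, 1022, 1109 and 1162 CPM, all below the Con geese, with a log2 fold change of −0.35 (SE 0.176, adjusted p = 0.762 by edgeR). The call in HWG against Con held in 4 of 21 alternative settings. HNRNPA2B1, a close relative that shares its RNA-binding domains, had 609, 588, 661 and 709 CPM in LWG geese, against 866, 852, 685 and 819.7 CPM in Con geese. LWG goose 4 and Con goose 3 overlapped, and the log2 fold change was −0.33 (SE 0.161, adjusted p = 0.761 by edgeR). HNRNPH1 had 731, 626, 607 and 661 CPM in Con geese, then 603, 650.4, 664 and 724 CPM in LWG geese, and 622, 741, 686 and 665 CPM in HWG geese. Its 3 groups covered the same range.

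Groups that did not overlap were counted for all genes as well. In LWG against Con, 2 of the 44 genes (HNRNPLL and HNRNPA3) had every LWG goose below every Con goose, where 1.68% of all tested genes did, and 0 had every LWG goose above, where 1.18% did. In HWG against Con, 2 genes (HNRNPR and SF3B6) had every HWG goose below every Con goose, against 1.21%, and 0 had every one above, against 1.1%. HNRNPR, a transcript-binding hnRNP, had 193, 239, 245 and 233 CPM in HWG geese, against 268, 256, 262 and 290.4 CPM in Con geese. Its log2 fold change was −0.24 (SE 0.137, adjusted p = 0.939 by edgeR), so a complete separation went with a small shift. In HWG against LWG, 1 gene (PRPF4) had every HWG goose above every LWG goose, against 2.44%, and 0 had every one below, against 1.94%.

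**Figure D3:**
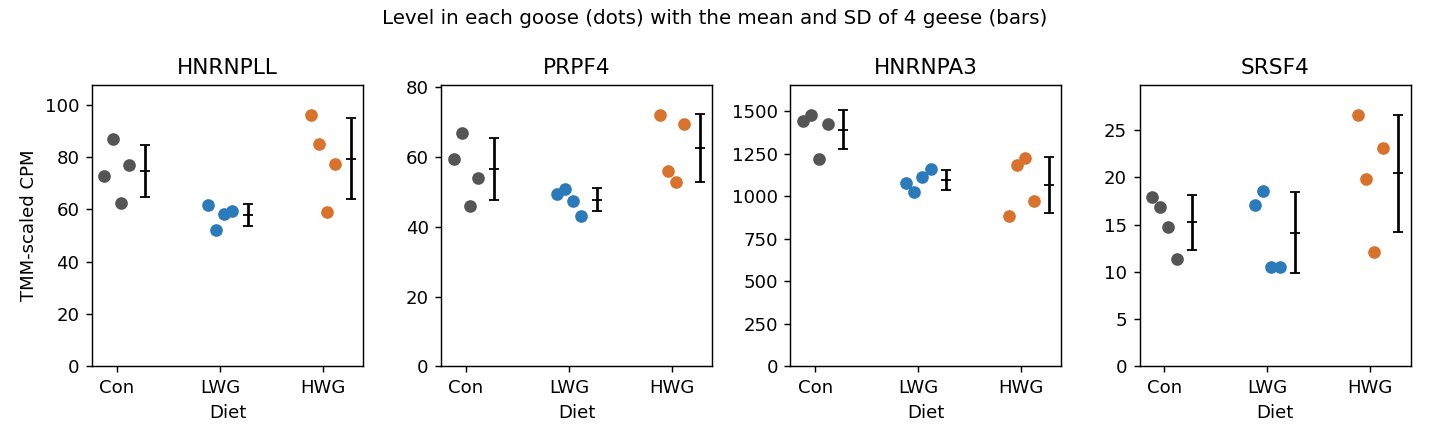
TMM-scaled CPM of HNRNPLL, PRPF4, HNRNPA3 and SRSF4 in each goose (dots), by diet in order of dose, with the mean and SD of the 4 geese of each diet beside them (bars). For HNRNPLL the LWG dots lie between 52.0 and 61.6 CPM, below the Con dots, and for PRPF4 the HWG dots begin at 52.8 CPM, above the highest LWG dot at 50.9.

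The snRNP protein genes had a log2 fold change below 0 for 7 of 7 in LWG against Con, where 48.9% of all tested genes did. It was below 0 for 6 of 7 in HWG against Con, against 51.3%, and for 1 of 7 in HWG against LWG, against 49.4%. None of the 7 passed the unadjusted threshold. SNRPB, the Sm protein B, had 51.0, 57.9, 86.5 and 72.3 CPM in LWG geese, against 86.0, 103.7, 71.7 and 100.4 CPM in Con geese. Of the LWG geese, 2 were below all Con geese and 2 were within their range, and the log2 fold change was −0.44 (SE 0.228, adjusted p = 0.778 by edgeR). SNRPA1, the U2 snRNP A′ protein, had 48.9, 36.1, 19.4 and 39.4 CPM in Con geese, then 19.9, 15.0, 28.3 and 35.5 CPM in LWG geese, and 23.0, 36.6, 19.6 and 19.8 CPM in HWG geese. Con goose 3 was as low as the low geese of the wheat germ groups. The log2 fold change was −0.54 in both comparisons with Con, with intervals of −1.24 to 0.15 for LWG and −1.23 to 0.16 for HWG. SNRPC, which helps U1 to hold the 5′ splice site, differed by −0.0013 on the log2 scale in LWG against Con, with an interval of −0.33 to 0.32, and its sign turned with the scaling.

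Of the 6 genes of the branch point complex, 5 had an interval within 1.5-fold in LWG against Con, 5 in HWG against Con and 6 in HWG against LWG. For SF3B1 the log2 fold change was 0.033 in LWG against Con, but −0.066 on the FPKM scale, and −0.12 in HWG against Con. SF3B6, the subunit that contacts the branch point adenosine, had 66.2, 62.3, 66.2 and 63.3 CPM in HWG geese, against 96.1, 76.4, 66.3 and 67.4 CPM in Con geese. The HWG geese lay close together and just below the lowest Con goose, and the log2 fold change was −0.25 (SE 0.165, adjusted p = 0.939 by edgeR). In LWG geese SF3B6 was split, with 52.5 and 52.6 CPM in geese 1 and 2 and 71.1 and 77.5 CPM in geese 3 and 4.

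Of the 11 PRPF genes, 11 had an interval within 1.5-fold in LWG against Con, 10 in HWG against Con and 9 in HWG against LWG. PRPF4, a WD-repeat protein of the U4/U6 particle, was the exception that passed the unadjusted threshold. It had 72.1, 55.9, 52.8 and 69.6 CPM in HWG geese, against 49.3, 50.9, 47.5 and 43.2 CPM in LWG geese. The groups did not overlap, and the log2 fold change was 0.39 (SE 0.152, adjusted p = 0.415 by edgeR). This difference kept an unadjusted p under 0.05 in 19 of 21 alternative settings, but not without HWG goose 1 or without HWG goose 4. In Con geese PRPF4 had 59.4, 66.8, 46.0 and 54.1 CPM, a range that covered most LWG and HWG geese. PRPF3, which binds PRPF4 in the same particle, had a log2 fold change of 0.10 in HWG against LWG.

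The geese themselves differed as sets. The median over the 44 genes of each goose's log2 deviation from the Con mean was 0.13, 0.066, −0.15 and 0.0063 in Con geese, −0.17, −0.12, −0.088 and 0.019 in LWG geese, and −0.15, −0.062, −0.14 and −0.091 in HWG geese. Con goose 3 had 36 of the 44 genes below the Con mean, where the wheat germ geese had 21 to 33. Its median of −0.15 lay within the range of the wheat germ geese. Con goose 3 carried weight in the tests. Without it, 10 genes were lower in LWG against Con at an unadjusted p under 0.05 (SRSF3, SRSF10, HNRNPA2B1, HNRNPA3, HNRNPK, HNRNPLL, SNRPA1, SNRPB, SNRPD3 and PRPF4), against 1 with it. Of all genes tested in that fit, 6.7% were lower, against 3.8% with Con goose 3. In HWG against Con 3 were lower without it (HNRNPA3, SNRPA1 and SRSF10), where 2.1% of all genes were. None of these passed an adjusted p under 0.05. Without LWG goose 4, 4 genes were lower in LWG against Con (SRSF3, SNRPA1, SNRPD3 and SF3B6), against 4.31% of all genes, and without HWG goose 3 there were 2 (HNRNPLL and SNRPB), against 4.07%. Without Con goose 2, Con goose 4 or LWG goose 2, 0 were, where 2.53%, 2.28% and 3.13% of all genes were. In HWG against Con, leaving out HWG goose 2 gave 2 lower genes, against 1.71% of all genes, and leaving out HWG goose 3 gave 1 higher gene, SRSF4, against 5.56%.

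**Figure D4:**
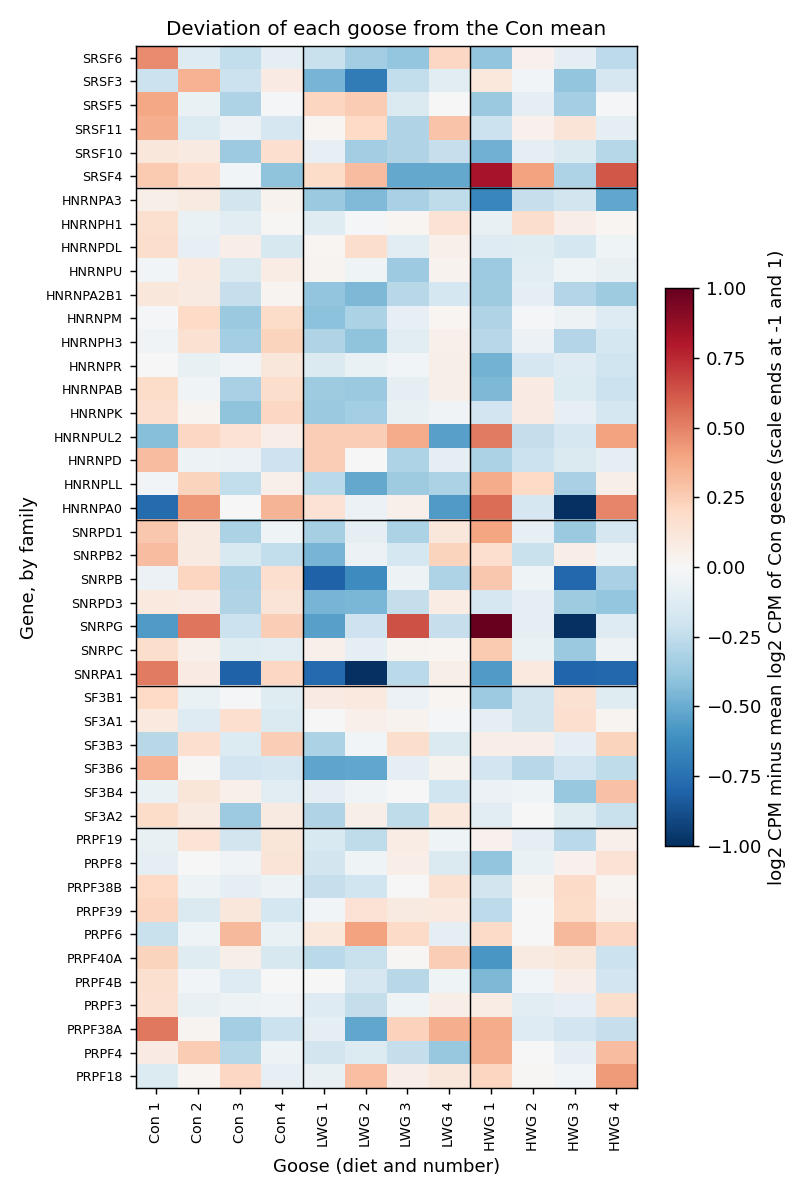
Heat map of log2 CPM minus the mean of the Con geese, for the 44 genes (rows, by family) in the 12 geese (columns, by diet in order of dose), with red above and blue below the Con mean. The column of Con goose 3 is mostly blue, with 36 of 44 genes below the Con mean, and the rows of SNRPG and SNRPA1 have the strongest colours.

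The members did not move as 1 block. Over the 946 pairs of the 44 genes, the correlation of log2 CPM after subtraction of the diet means had a median of 0.13 and ran from −0.93 to 0.95, with 567 pairs above 0. These values describe the same 12 libraries and carry no test. Pairs of other tested genes were not examined, so no background stands beside the counts of pairs. Within the families, the snRNP protein genes had 21 of 21 pairs above 0, with a median of 0.48, and the HNRNP genes 51 of 91, with a median of 0.18. HNRNPA2B1 and SNRPA1 had the highest value, at 0.95, and HNRNPAB and HNRNPK followed at 0.93. PRPF6, the bridging protein of the tri-snRNP, ran the other way and had the lowest value, −0.93, with SNRPA1.

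To see what went with this variation, the level of each gene was correlated over the 12 geese with the summed CPM of 5 marker lists (cell cycle, enterocyte, smooth muscle, immune and stroma). This comparison was added after the values were seen. The p-values came from a permutation test with 100000 resamples and were adjusted over 74273 relations of all tested genes. Geese were permuted across diets, so these p-values include differences between the diets. Counted were genes with an adjusted p under 0.05 for both Pearson's r and Spearman's rho. For the 13 cell cycle genes, 5 of the 44 splicing factor genes (SNRPD3, HNRNPH3, SNRPA1, HNRNPK and HNRNPM) were positively correlated, or 11.4%, where 1.61% of all tested genes were. None was negatively correlated, where 0.256% of all were. The 44 genes as a whole had a median r of 0.38 with this list, against −0.027 for all tested genes.

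SNRPD3, the Sm protein D3, had the closest relation with the cell cycle list. In Con geese SNRPD3 had 145, 143, 109.9 and 147.9 CPM, and the list summed to 1811, 2353, 1019 and 2698 CPM. SNRPD3 had 98.4, 98.6, 115 and 142 CPM in LWG geese, where the list summed to 673, 602, 1151 and 1555 CPM, and 121, 127, 106 and 103.5 CPM in HWG geese, where it summed to 1523, 1723, 1051 and 1226 CPM. The low geese of each diet in the list were thus also low in SNRPD3, Con goose 3 among them. Pearson's r was 0.91 and Spearman's rho 0.93 (permutation p = 2e-05 and 6e-05, adjusted p = 0.00601 and 0.013), with an r of 0.94 after subtraction of the diet means. Without LWG geese 1 and 2, which lay farthest from the median of the list, r was 0.88.

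HNRNPH3, a relative of HNRNPH1, had an r of 0.89 and a rho of 0.94 with the cell cycle list (permutation p = 0.00015 and 3e-05, adjusted p = 0.0163 and 0.00936), and an r of 0.95 after subtraction of the diet means. Without LWG geese 1 and 2 it was 0.89. The other called genes, SNRPA1, HNRNPK and HNRNPM, had an r of 0.83 to 0.85 and a rho of 0.88 to 0.90, with adjusted p between 0.0215 and 0.0344 in the permutation test. When each goose was left out in turn, SNRPD3 was called 12 of 12 times and HNRNPH3 11 of 12 times, SNRPA1 and HNRNPK 4 times each and HNRNPM 1 time. Between 1 and 5 genes were called in these runs. The lowest counts were 1 without Con goose 4 and 2 without Con goose 3, LWG goose 4, HWG goose 2 or HWG goose 4. The share of all tested genes called was not counted for these runs. SRSF3, HNRNPA2B1 and SNRPB passed for r but not for rho. PRPF6 had an r of −0.74, with an adjusted p of 0.103 in the permutation test.

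**Figure D5:**
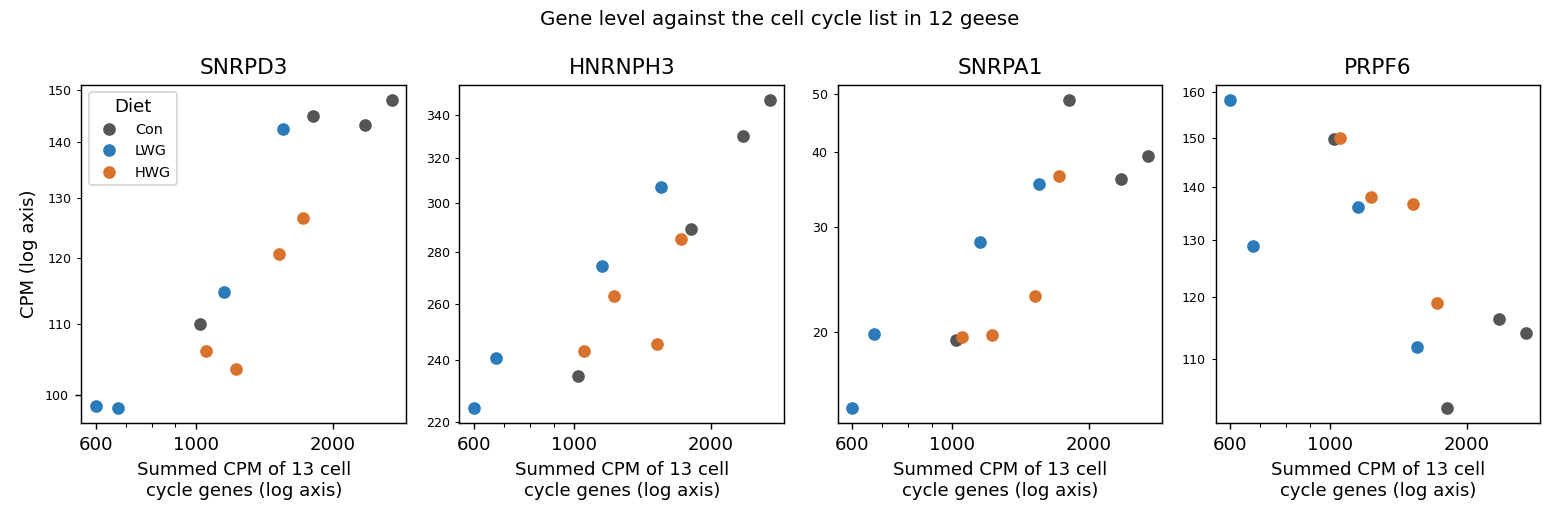
CPM of SNRPD3, HNRNPH3, SNRPA1 and PRPF6 (log axis) against the summed CPM of 13 cell cycle genes (log axis), with a dot for each of the 12 geese coloured by diet. SNRPD3 (r = 0.91), HNRNPH3 (r = 0.89) and SNRPA1 (r = 0.85) are higher where the list is higher, within diets too, and PRPF6 (r = −0.74) is lower.

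The 13 genes of the cell cycle list summed to a lowest, median and highest value of 1019, 2082 and 2698 CPM in Con geese, then 602, 912 and 1555 CPM in LWG geese, and 1051, 1375 and 1723 CPM in HWG geese, so that the ranges of the diets overlapped. At an unadjusted p under 0.05, 9 of the 13 were lower in LWG against Con, where 3.8% of all tested genes were, and 1 of 13 in HWG against Con, where 2.04% were. None passed an adjusted p under 0.05, the smallest being 0.489 by edgeR. The part of this list in the downward lean of the splicing factor genes was not tested.

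The enterocyte list, of 7 genes, was lower where the 2 genes called in HWG against LWG were higher. The list itself had a median of 2910 CPM in HWG geese and 15156 CPM in LWG geese. The 2 genes were picked for that comparison, so r over all geese is not independent of the choice. PRPF4 was negatively correlated with it at an r of −0.84 and a rho of −0.90 (permutation p = 0.00093 and 0.00019, adjusted p = 0.0404 and 0.0226), −0.71 after subtraction of the diet means and −0.87 without HWG geese 2 and 4. It was 1 of 44 genes, where 0.936% of all tested genes were negatively correlated, and 0 of 44 were positively correlated, where 3.39% were. With each goose left out in turn, PRPF4 was called in 2 of 12 runs, those without Con goose 1 and without HWG goose 2. HNRNPLL had an r of −0.89 and a rho of −0.81 with the list (permutation p = 0.00031 and 0.00189, adjusted p = 0.0232 and 0.0666). It passed for r but not for rho, and its r was −0.80 after subtraction of the diet means. The list summed to 3162, 2657, 14680.0 and 2634 CPM in HWG geese, against 9871, 12590.0, 17723 and 22107 CPM in LWG geese. HWG goose 3, the HWG goose with the lowest HNRNPLL and PRPF4, was the one within the LWG range of the list.

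HNRNPLL also went with the stroma list, of 6 genes such as collagens, at an r of 0.89 and a rho of 0.78 (permutation p = 0.00011 and 0.00347, adjusted p = 0.014 and 0.0862). After subtraction of the diet means, its r with the stroma list was 0.85. That list summed to 2830.0, 3115, 1648 and 2092 CPM in HWG geese, against 1522, 1049, 1554 and 1323 CPM in LWG geese, without overlap. Of its 6 genes, 5 had an unadjusted p under 0.05 in HWG against LWG, all higher, where 5.15% of all tested genes were, and none passed adjustment (smallest adjusted p = 0.368 by edgeR). The part of these cell types in the differences of HNRNPLL and PRPF4 was not tested. With the stroma list, 0 of the 44 genes passed for both measures, where 1.53% of all tested genes did. The smooth muscle list, with 0 of 44 against 0.491%, and the immune list, with 0 of 44 against 0.0337%, had no called member.

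Other splicing genes were read from lists written by hand. Of 62 tested genes of the core spliceosome outside the 5 families, 2 were lower in LWG against Con at an unadjusted p under 0.05, where 3.8% of all tested genes were, and none passed in the other comparisons. These were LSM5, of the ring on U6 snRNA, with a log2 fold change of −0.57, and the helicase DHX35, with −0.47. In this list 50 of 62 genes were below 0 in LWG against Con, where 48.9% of all tested genes were, with a median of −0.11. In HWG against Con 40 were below 0, against 51.3%, with a median of −0.044. In HWG against LWG 12 were below 0, against 49.4%, with a median of 0.062. None of 12 genes of snRNP assembly passed in any comparison. Of the 8 kinases and phosphatases of SR proteins, CLK1 alone was higher in LWG against Con, with a log2 fold change of 0.39. The share of all tested genes was 2.83%, and 0 were lower, against 3.8%. DYRK1A alone was lower in HWG against Con, with −0.38, against 2.04%, and 0 were higher, against 2.13%. Both had an unadjusted p under 0.05, kept by CLK1 in 13 of 21 alternative settings and by DYRK1A in 7.

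Of 43 splicing regulators, RBM5, an RNA-binding protein that regulates exons of apoptosis genes, had 416, 437, 462 and 428 CPM in Con geese, then 616, 618, 512 and 525 CPM in LWG geese, and 554, 598, 520.2 and 584 CPM in HWG geese. Every wheat germ goose was above every Con goose. Of all tested genes, 1.18% were so in LWG against Con and 1.1% in HWG against Con, and the share for both together was not counted. FUBP1 of the same list went the other way. It reached at most 238 CPM in LWG geese and 230 CPM in HWG geese, against at least 255 CPM in Con geese. Of all tested genes, 1.68% had every LWG goose below every Con goose, and 1.21% every HWG goose. Without overlap, FUBP3 and RBMX were also below Con in LWG geese, and TRA2A was above Con in HWG geese. Such separations were not counted over all 43 regulators. The log2 fold change of RBM5 was 0.38 (SE 0.148, adjusted p = 0.685 by edgeR) in LWG against Con and 0.37 (SE 0.148, adjusted p = 0.939 by edgeR) in HWG against Con, both with an unadjusted p under 0.05. RBMX, also called hnRNP G, had 186, 166, 155 and 172 CPM in HWG geese, against 132, 132, 112 and 139 CPM in LWG geese. The HWG geese were all above the LWG geese, where 2.44% of all tested genes were so. The log2 fold change of RBMX was 0.40 (SE 0.132, adjusted p = 0.376 by edgeR), and in LWG against Con it was −0.31. FUBP3 and FUBP1 were lower in LWG against Con, with −0.36 and −0.29, and MBNL3 in HWG against Con, with −0.45. MBNL2 and PTBP3 were lower in HWG against LWG, with −0.73 and −0.44. Each of these had an unadjusted p under 0.05 and an adjusted p above it. The former was kept in 20, 9, 6, 16 and 13 of 21 alternative settings, in the order named. Of the 43, 1 was higher and 3 lower in LWG against Con, against 2.83% and 3.8% of all tested genes. In HWG against Con 1 was higher and 1 lower, against 2.13% and 2.04%. In HWG against LWG 1 was higher and 2 lower, against 5.15% and 5.41%.

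Finally, 4 genes of the families stand in the table under LOC numbers and were not counted among the 44. By gene number they are SRSF1, SRSF2, SRSF7 and SF3A3 in the RefSeq gene table. SRSF1, the founding SR protein, had a mean of 182 FPKM over the 12 geese, and none of the 4 passed an unadjusted p under 0.05 in any comparison. All 4 were below 0 in LWG against Con, with log2 fold changes of −0.19 to −0.044, where 48.9% of all tested genes were. In HWG against Con none was below 0, with 0.013 to 0.20, where 51.3% of all tested genes and 72.7% of the 44 were. In HWG against LWG none was below 0 either, with 0.14 to 0.25, against 49.4% of all tested genes.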

How the data were processed

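Jejunal RNA of 12 geese, 4 for each diet, was sequenced. Per the labels and methods, poly(A) RNA was used with a dUTP second strand, reads were filtered with fastp and mapped with HISAT2, and levels were estimated with StringTie; versions are not given in the sources used here. The table deposited by the authors holds whole-number counts, not normalized, and FPKM values for each goose. Small counts gather at multiples of 4 (3148 values of 4, against 1250 of 3 and 1052 of 5), so a count is not 1 read pair, and no counting interval is given. The smallest chi-square per gene among the 66 pairs of libraries was 87.2, so no pair held the same library. In R 4.3.3, edgeR 4.0.16 was run with filterByExpr, TMM scaling and 1 quasi-likelihood fit of all 12 libraries, with Benjamini-Hochberg adjustment over 14863 genes. Intervals are at 95%. The heat map uses log2 CPM with a prior count of 2, and the correlations use log2 CPM plus 0.01 with 100000 permutations (20000 in the alternatives), the smallest p of which is 1e-05.

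Genes were named by a rule: up to 8 members a direction with the smallest unadjusted p under 0.05, the 2 highest and the lowest in FPKM of each family, and the 3 smallest and 3 largest coefficients of variation. Other named members were chosen after their values were seen. The members and lists were chosen with earlier results of these data known. Alternatives were DESeq2 1.42.0, other scalings, no filter, the replicate number as a block, the compared groups alone, counts divided by 4, limma 3.58.1 on log2(FPKM + 0.1) or + 1, and each library left out. For each comparison the last include runs without a goose of the third diet, which is not itself compared. The tests were checked on simulated data. Of the members, 42 gene numbers were found in RefSeq (Taihu goose assembly), 41 under the same symbol. Positions and sequences were not used here, since the builds differ. None of the 5 red blood cell markers listed was in the table. Python 3.11.15 was used for correlations and plots.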

Additional observations from a re-analysis of the deposited data

Results flagged for a closer look

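PRPF3 had 77.6 CPM in Con goose 1, while the other 3 Con geese lay between 66.3 and 67.9 CPM, so that this goose stood apart from a close group. It was 1 of 57 groups of 4 geese examined for 19 genes, and about 1 in 20 such groups is marked by chance.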

How the results depend on the processing

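No member passed an adjusted p under 0.05 in any of the 21 alternatives of the 3 comparisons of diets. The share of all tested genes that passed is given for the main fit only, where it was 0%. Of 35 differences of single genes that were followed, 31 kept their direction in all 21. In LWG against Con, SNRPC, at −0.0013, turned to 0.00137 with the size factors of DESeq2, to 0.00145 with DESeq2, to 0.0063 with the replicate block and to 0.0022 with counts divided by 4, and ran from −0.061 to 0.061 with a goose left out. With limma, SF3B1 turned to −0.066 (+ 0.1) and −0.065 (+ 1) and SF3A1 to −0.085 and −0.084. With a goose left out they ran from −0.0073 to 0.104 and from −0.035 to 0.051. In HWG against Con, SNRPG ran from −0.414 to 0.440. The 1 member lower in HWG against Con became 0 with the size factors of DESeq2, upper-quartile factors, no filter, the replicate block, counts divided by 4, the compared groups alone and limma with either pseudocount, and it ran from 0 to 3 with a goose left out. The 1 lower in LWG against Con became 3 with DESeq2 (3.83% of all genes) and 6 with limma at either pseudocount (6.32% and 6.2%), and ran from 0 to 10 with a goose left out. The 0 higher in HWG against Con ran from 0 to 1, and the 2 higher in HWG against LWG from 1 to 3. With limma the median log2 fold change was −0.193 (+ 0.1) and −0.188 (+ 1) in LWG against Con, and 0.180 and 0.174 in HWG against LWG, where the median of all genes also moved. Counts and FPKM gave the same direction for 35 of 44 members in LWG against Con, 38 in HWG against Con and 31 in HWG against LWG. The 5 positive correlations with the cell cycle list became 9 in FPKM and ran from 1 to 5 with a goose left out. The 1 negative correlation with the enterocyte list became 3 in FPKM and ran from 0 to 1. The share of all tested genes called in these correlation runs was not counted, so no background stands beside these counts. The cause of these moves was not tested.

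Geese of the same number had correlations of their deviations from −0.28 to 0.38, with 4 of 12 geese closest to their own number. In HWG against Con the values ran from 0.037 to 0.38, and in the other comparisons they had both signs. With 4 geese in each group, these values cannot settle whether the numbers pair the geese. With the replicate block, 0 members were lower in HWG against Con, against 1 without it, and 3 were higher in HWG against LWG, against 2. The other counts of calls kept their values with the block.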

Other observations

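Mean FPKM per unit of mean CPM differed among the 44 genes. It was 0.124 for PRPF8, 0.147 for PRPF18 and 0.175 for HNRNPD, while it was 2.40 for HNRNPUL2 and 2.31 for both SNRPG and SNRPD1. HNRNPUL2 thus had a mean of 27.7 CPM and 66.4 FPKM, and PRPF18 a mean of 66.6 CPM and 9.81 FPKM, so their order turns with the unit. The transcript lengths behind the FPKM values were not examined.

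In the KEGG spliceosome pathway of the deposited annotation, 184 genes were tested, 34 of them members of the 5 families. At an unadjusted p under 0.05, LWG against Con had 2 of them higher and 9 lower, where 2.83% and 3.8% of all tested genes were, with a median log2 fold change of −0.11 and 147 of 184 below 0. HWG against Con had 2 higher and 2 lower, against 2.13% and 2.04%, with a median of −0.054 and 111 below 0. HWG against LWG had 3 higher and 4 lower, against 5.15% and 5.41%, with a median of 0.062 and 48 below 0. Of all tested genes, 48.9%, 51.3% and 49.4% were below 0 in these comparisons, in the same order.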
